A study of Mus musculus with 46 samples.

Results

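The heart samples that lost their RNA integrity were compared with the heart samples that kept it. The degraded group held 2 arrays, heart tissue left at room temperature (RT) for 48 h and for 96 h, whose RNA integrity numbers (RIN, on which high values mean intact ribosomal RNA and low values degraded RNA) were 4.6 and 2.2. The intact group held 13 arrays with a RIN of 8.1 to 9.0, namely RT for 0, 1, 3, 6, 12 and 24 h, and 4 °C for 1, 3, 6, 12, 24, 48 and 96 h. These 15 arrays were chosen by tissue, storage and RIN out of 46 in the series, which also holds liver and brain, and the heart array of 0 h at 4 °C, a low-quality array with 215 detected miRNAs, was set aside. All animals were male C57BL6 mice of an Il1a knock-out strain, obtained as fresh cadavers. No age was given in the sources used here. Each heart was cut into parts, and 1 part was taken per storage time. The labels give 12 h for a time point that the methods give otherwise. The arrays of RT came from 1 animal on 1 slide and those of 4 °C from another animal on another slide, so that slide, animal and storage temperature cannot be told apart. Both degraded arrays lay on the RT slide beside 6 intact arrays. The samples of a group are thus time points of 1 or 2 hearts and not separate animals at a fixed time, and p-values measure only the spread between these arrays.

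MicroRNAs (miRNAs) are short RNAs cut from a hairpin precursor. A mature strand is loaded into an Argonaute protein and guides it to messenger RNAs, mostly through the seed, bases 2 to 8 of the strand. The hairpin has a 5p and a 3p arm, and often only the guide arm accumulates while the passenger arm is lost. The heart is known for the muscle miRNAs miR-1 and miR-133 and for miR-208 and miR-499, which lie inside myosin heavy chain genes. The number in a miRNA's name broadly follows the order of registration, so that high numbers mark entries that came mainly from deep sequencing.

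The sequences below carry the main changes. They are the mature strands of RefSeq (GRCm38.p6), printed 5′ to 3′ with the seed in capitals. Of the 815 miRNAs tested, 680 were matched to this table by name. The first set is shown because these miRNAs were measured on every intact array and fell most in degraded heart.
miR-3968: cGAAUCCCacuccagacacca
miR-6366: aGCUAAGGggcccggggagcca
miR-6412: uCGAAACCauccucagcuacua
miR-212-3p: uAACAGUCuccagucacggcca
miR-3963: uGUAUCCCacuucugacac
miR-5100: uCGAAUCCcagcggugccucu
The second set was detected on all 15 heart arrays and rose most.
miR-7002-5p: uUGGCUUCggggaguacgugg
miR-6931-5p: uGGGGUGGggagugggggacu
miR-3077-5p: cUGCGGACgggugggcgggcaggcc
miR-2861: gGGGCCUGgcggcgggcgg
miR-6392-3p: gACGCAGGuuugccggguccucu
miR-5119: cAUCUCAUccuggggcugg
The third set was detected on both degraded arrays and on 0 of the 13 intact arrays.
miR-5621-5p: aGGAGGUCcuggggccgcccuga
miR-546: aUGGUGGCacggaguc
miR-7684-3p: uGCUGACUggggcuggccugug
miR-1931: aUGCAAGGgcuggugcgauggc
miR-6915-5p: aGGUCAGAgcagauggagguucgu
The fourth set holds miRNAs of heart muscle, red blood cells and endothelium for comparison.
miR-133b-3p: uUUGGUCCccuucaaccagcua
miR-499-5p: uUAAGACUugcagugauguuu
miR-208a-3p: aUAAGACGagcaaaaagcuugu
miR-451a: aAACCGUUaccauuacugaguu
miR-126a-3p: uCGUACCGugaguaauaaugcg
The last set gives both arms of hairpins whose arms moved in opposite directions.
miR-149-5p: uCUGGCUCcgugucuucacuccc
miR-149-3p: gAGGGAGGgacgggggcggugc
miR-125a-5p: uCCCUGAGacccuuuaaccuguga
miR-125a-3p: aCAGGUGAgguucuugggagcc

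Among those that fell, miR-3968 lies at chr11:115447969-115447989 on the minus strand, within the span of Trim80, which is annotated on the plus strand. miR-5100 lies at chr11:60728698-60728718 within the span of Mief2, on the same strand. miR-6366 (chr16:18165093-18165114), miR-6412 (chr10:122648412-122648433), miR-212-3p (chr11:75173443-75173464) and miR-3963 (chr3:151023839-151023857) lie within no span of a protein-coding gene in this annotation. Among those that rose, miR-7002-5p (chr2:114150547-114150567) lies within Aqr, miR-6931-5p (chr11:102999896-102999916) within Dcakd, miR-3077-5p (chr14:57798424-57798448) within Sap18, miR-6392-3p (chr15:84168334-84168356) within Pnpla3 and miR-5119 (chr11:98262638-98262656) within Cdk12, each on the gene's strand, while miR-2861 (chr2:32712819-32712837) lies within none. In the third set, miR-5621-5p (chr11:115795824-115795846) lies within Tmem94, miR-546 (chr10:126998471-126998486) within Ctdsp2, miR-7684-3p (chr15:82393919-82393940) within Cyp2d11, miR-1931 (chr10:93162879-93162900) within Cdk17 and miR-6915-5p (chr10:128388837-128388860) within Ankrd52. Of the heart miRNAs, miR-499-5p (chr2:155622893-155622913) lies within Myh7b and miR-208a-3p (chr14:54949072-54949093) within Myh6, both myosin heavy chain genes, miR-126a-3p (chr2:26591402-26591423) lies within Egfl7, and miR-133b-3p (chr1:20682834-20682855) and miR-451a (chr11:78073186-78073207) lie within none. The arms of miR-149 (chr1:92850381-92850403 and chr1:92850421-92850442) lie within Gpc1, and those of miR-125a (chr17:17830817-17830840 and chr17:17830855-17830876) within Spaca6. Exons and introns were not distinguished.

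More miRNAs were detected in degraded than in intact heart, by the detection flag that the scanner software sets per miRNA. The array of 48 h at RT had 589 detected miRNAs and that of 96 h had 683. The 13 intact arrays had between 374 and 490, with a mean of 419.1 ± 31.1 (SD, n = 13). Both degraded arrays thus lay above every intact array, and the more degraded array lay higher. The difference of 217 miRNAs gave p = 0.0190 in a two-sided exact permutation test, the smallest value that 2 of 15 arrays allow. Within the RT slide alone the difference from the 6 intact arrays was 227, with an exact permutation p of 0.0714, again the smallest possible. The summed signal of the arrays did not separate the groups, with 419394 and 327283 units on the degraded arrays and 230348 to 410491 on the intact ones (exact permutation p = 0.400). The number of arrays limits the precision, and no miRNA spot was saturated.

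In number of miRNAs the gain was largest for high numbers in the name. Of miRNAs numbered 3000 or higher, 125 to 171 were detected on the intact arrays, against 245 at 48 h and 319 at 96 h. Their share of the detected miRNAs was 34.4% ± 1.02 (SD, n = 13) in intact heart, 41.6% at 48 h and 46.7% at 96 h (exact permutation p = 0.0190). Of miRNAs numbered under 1000, 228 to 294 were detected on the intact arrays, against 309 and 318 on the degraded ones. Their mean went from 252.5 to 313.5, with the same smallest p of 0.0190, while that of the high numbers went from 144.4 to 282.0.

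**Figure D1:**
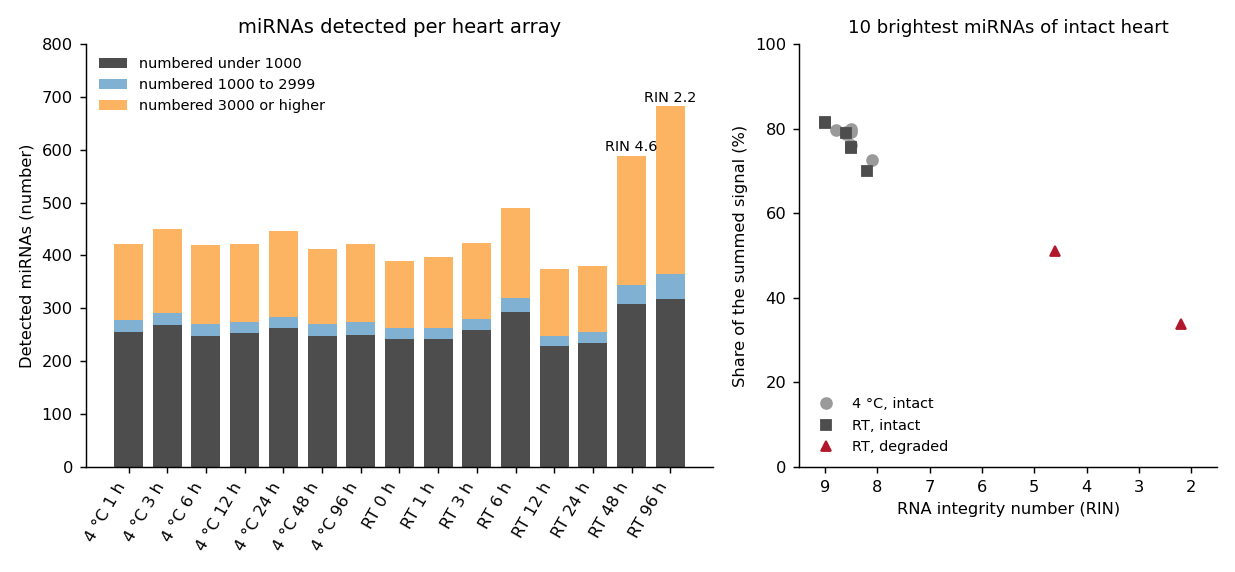
Left, number of detected miRNAs on each of the 15 heart arrays (storage and hours on the x axis), stacked by the number in the miRNA's name. Right, percent of the summed signal held by the 10 brightest miRNAs of intact heart against RIN, 1 point per array. The degraded arrays stand at 589 and 683 detected miRNAs and at 51.0% and 33.7%, outside the ranges of the intact arrays.

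Of 330 miRNAs detected on all 13 intact arrays, 329 were detected on both degraded arrays as well. The exception was miR-6943-3p, named after its values were seen, with intact values of 2.99 to 3.69 and degraded values of 2.21 and 2.22 on the log2 scale. Among miRNAs that only some intact arrays detected, 50 were detected on no degraded array, and 7 of these had been detected on at least 7 intact arrays. On the other side, 216 of the 1881 miRNAs on the array were detected on at least 1 degraded array and on no intact heart array. Those detected on both degraded arrays were 25 numbered under 1000, 8 numbered 1000 to under 3000 and 72 (68.6%) numbered 3000 or higher. The latter names make up 49.8% of the array and 30.9% of the miRNAs detected on every intact array. At 48 h only, 6 were newly detected, and the others at 96 h only. Of those new on both degraded heart arrays, 64 were detected on 0 of 6 intact and at least 4 of 8 degraded liver arrays, which is 61.0% of the heart list and 43.0% of the corresponding liver list of 149. In brain, 26 were detected on both degraded and on 0 of 14 intact arrays, 24.8% of the heart list and 33.3% of the brain list of 78. Whatever the intact arrays showed, 73 of the heart list were detected on both degraded brain arrays and 70 on at least 4 of 8 degraded liver arrays. On intact arrays, 50 of the heart list were detected in brain and 6 in liver. The lower share in brain thus went with detection in intact brain, and the rule for degraded arrays differed between these tissues.

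The signal was also spread over more miRNAs. In intact heart, the 10 brightest miRNAs held between 69.9% and 81.5% of the summed signal, with a mean of 77.6% ± 3.46 (SD, n = 13). They held 51.0% at 48 h and 33.7% at 96 h. The intact array nearest to these was that of 24 h at RT. The mean share fell by 35.2 percentage points, with the smallest possible exact permutation p of 0.0190. The 10 miRNAs were chosen by their level on the intact arrays, so that the choice itself favours a lower share on the other arrays. The share of some bright miRNAs fell. miR-6366 held 16.1% to 37.6% on the intact arrays, but 8.30% at 48 h and 3.39% at 96 h. miR-3963 held 17.9% to 28.4%, then 7.57% and 5.41%. The muscle miRNA miR-1a-3p held 4.14% to 8.28% on the intact arrays, but 10.39% at 48 h and 8.10% at 96 h, so that the latter lay inside the intact range (exact permutation p = 0.0571).

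A ratio to miR-1a-3p within each array needs no scaling between arrays. On the log2 scale, the signal of miR-6366 over that of miR-1a-3p was 0.98 to 2.90 in intact heart, -0.32 at 48 h and -1.26 at 96 h. That of miR-2861 over miR-1a-3p was -7.97 to -6.18 in intact heart, then -3.01 and -1.83. Neither ratio overlapped between the groups, and each gave the smallest possible exact permutation p of 0.0190. Both miR-6366 and miR-2861 were picked for their large change on these same arrays, so that these p-values are a description and no separate support. By contrast, the ratio of miR-133b-3p to miR-1a-3p was -0.62 to -0.28 in intact heart and -0.55 and -0.57 in degraded heart (exact permutation p = 0.971), inside the intact range. These were among 20 measures per array that were tested. The Benjamini-Hochberg adjusted value was 0.0272 for each measure at the smallest p.

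The expression values were compared miRNA by miRNA on the authors' log2 values, which had been normalized by variance stabilizing normalization (VSN). A miRNA was called when the limma test gave an adjusted p under 0.05 over all 815 miRNAs and the group means differed by at least 1 on the log2 scale, that is 2-fold. In degraded heart, 291 miRNAs (35.7%) were higher and 94 (11.5%) were lower, while 430 were not called and the median difference over all miRNAs was -0.03. With both degraded arrays on the same side of all 13 intact arrays as the criterion, 306 (37.5%) lay above and 107 (13.1%) below. Against the 6 intact arrays of the RT slide alone, 288 were higher and 77 lower. The 2 degraded arrays did not weigh equally in the decreases. With only the 96 h array as degraded, 278 miRNAs were higher and 196 lower. With only the 48 h array, 225 were higher and 35 lower. Of the 291 increases, 289 had a 48 h value above the intact mean, and 246 were larger at 96 h than at 48 h. Of the 94 decreases, all 94 were below the intact mean at 48 h, and 86 were larger in size at 96 h. The split between directions depended on the scaling, with 396 higher and 8 lower when the arrays were not scaled, where the median of all miRNAs rose by 1.03, and 204 higher and 205 lower after quantile normalization. With the 75th percentile of all miRNAs as the scale it was 176 and 275, and without the filter on detection 480 and 387 of 1881 miRNAs. No call of the VSN values turned to the opposite call under any of these settings.

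**Figure D2:**
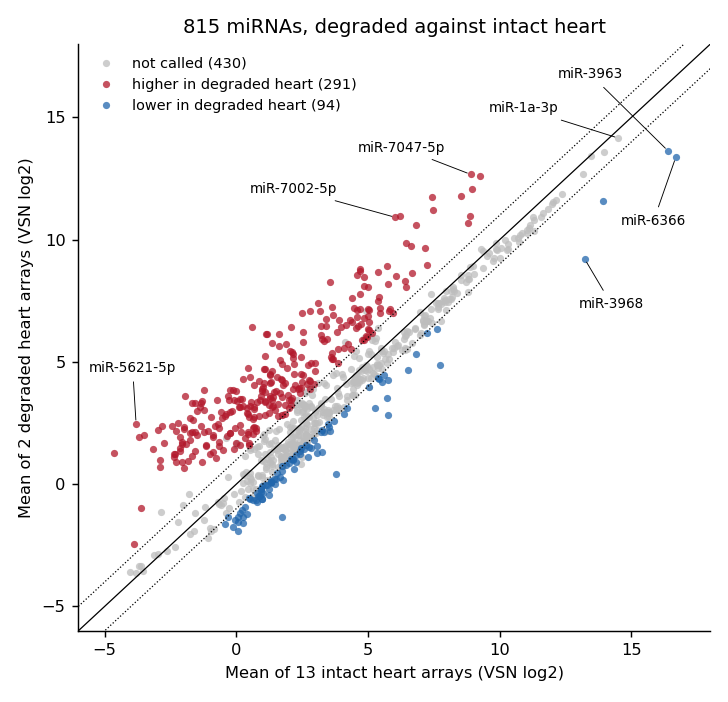
Mean VSN log2 value of the 2 degraded heart arrays (y axis) against that of the 13 intact heart arrays (x axis) for 815 miRNAs, with lines of equality (solid) and of a 2-fold difference (dotted). The 291 increases fill the low and middle levels, while most bright miRNAs follow the line of equality and miR-6366, miR-3963 and miR-3968 lie below it.

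Increases and decreases differed in how well the miRNAs were detected. Of the 291 higher miRNAs, 84 were detected on all 15 heart arrays, 97 on both degraded and 0 intact arrays, and 8 on none. Of the 94 lower miRNAs, 26 were detected on all 15 arrays and 39 on no heart array, so that their values are signals near the background. Among the 329 miRNAs detected on all 15 arrays, 84 were higher, 26 lower and 219 not called, with a median difference of -0.29. The median of these 329 was 0.15 at 48 h and -0.79 at 96 h. The 100 brightest of them, with an intact mean of 7.10 or more, had 10 higher, 7 lower and 83 not called. For 80 of the 84 increases every probe of the miRNA went up, and for 24 of the 26 decreases every probe went down.

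The decreases were led by bright miRNAs with high numbers. miR-3968 had 11.05 to 14.20 on the intact arrays with a median of 13.78, then 10.18 at 48 h and 8.23 at 96 h. Both degraded values lay below all intact ones, and the lowest intact value was that of 24 h at RT. It fell by 4.02 ± 0.73 on the log2 scale (difference ± SE, adjusted p = 0.000214). miR-6366 had a lowest, median and highest intact value of 15.28, 16.99 and 17.27, then 14.34 and 12.38, with no overlap and a fall by 3.32 ± 0.49 (adjusted p = 3.53e-05). miR-3963 went from 15.43 to 16.89 in intact heart (median 16.48) to 14.20 and 13.06. The groups did not overlap, and the mean fell by 2.75 ± 0.34 (adjusted p = 5.91e-06). miR-5100 was tight on the intact arrays, at 13.55 to 14.31 with a median of 13.81, and stood at 12.01 and 11.14 on the degraded ones. Its fall by 2.34 ± 0.24 gave an adjusted p of 1.21e-06. These 4 miRNAs together held 40.0% to 64.7% of the summed signal in intact heart, 17.99% at 48 h and 10.41% at 96 h.

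Dimmer miRNAs fell too. miR-6412 had intact values of 4.14 to 6.38 (median 6.08) and degraded values of 3.59 and 2.09, below all of them, a fall by 2.93 ± 0.53 (adjusted p = 0.000196). miR-212-3p, which shares a primary transcript with miR-132 and is known as an activity-regulated miRNA, had 6.44 to 8.40 (median 7.74), then 5.62 and 4.09. It fell by 2.86 ± 0.44 without overlap (adjusted p = 5.3e-05), while its partner miR-132-3p differed by -0.56 and was not called. miR-1198-5p fell by 1.87 ± 0.73 (adjusted p = 0.0358), but its 48 h value of 5.14 lay inside the intact range of 4.85 to 7.75, and its call was lost with the slide as a block. The other members of the 10 largest decreases were miR-7671-3p, miR-6402 and let-7d-3p, which fell by 2.18, 2.17 and 1.59 with no overlap between the groups. For 6 of these 10 miRNAs the intact array nearest to the degraded ones was RT 24 h.

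Some of these sequences share letters. AUCCCA, searched on the mature strand after the sequences had been seen, occurs in miR-3968, miR-3963 and miR-5100, and beyond them in miR-191-5p alone among the 680 matched miRNAs. Over all 1679 mature names in the RefSeq table with a single sequence, 7 (0.417%) hold it. miR-3968, miR-6366 and miR-212-3p end in CCA, as do 12 of the 680 matched miRNAs (1.76%) and 23 of the 1679 (1.37%). These are matches of letters in a set chosen for its decrease.

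The largest increases among miRNAs detected on all 15 arrays were the following. miR-7002-5p had 5.09 to 6.94 on the intact arrays (median 6.14), 10.84 at 48 h and 10.98 at 96 h. All intact values lay far below both degraded ones, and the difference was 4.88 ± 0.39 (adjusted p = 8.71e-08). miR-6931-5p rose from 5.39 to 7.36 (median 6.21) to 10.66 and 11.28, a difference of 4.77 ± 0.39 without overlap (adjusted p = 1e-07). miR-3077-5p had intact values of 2.94 to 4.56 (median 3.43) and degraded values of 7.73 and 8.81, higher by 4.71 ± 0.36 (adjusted p = 6.34e-08). miR-2861, described as a regulator of bone formation, had 6.59 to 8.13 (median 7.51), then 11.66 and 11.81, a rise of 4.31 ± 0.34 without overlap (adjusted p = 6.48e-08). miR-7047-5p stood at 12.37 and 12.96 against 7.87 to 9.94 in intact heart (median 8.90), higher by 3.77 ± 0.51 (adjusted p = 1.85e-05). The remaining members were miR-6392-3p, miR-5119, miR-7221-3p, miR-6538 and miR-6937-5p, with differences of 4.27, 4.10, 4.01, 3.80 and 3.77, none overlapping between the groups. The intact array nearest to the degraded ones was RT 24 h for 7 of the 10 and 4 °C 96 h, the last time point in the cold, for the other 3.

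**Figure D3:**
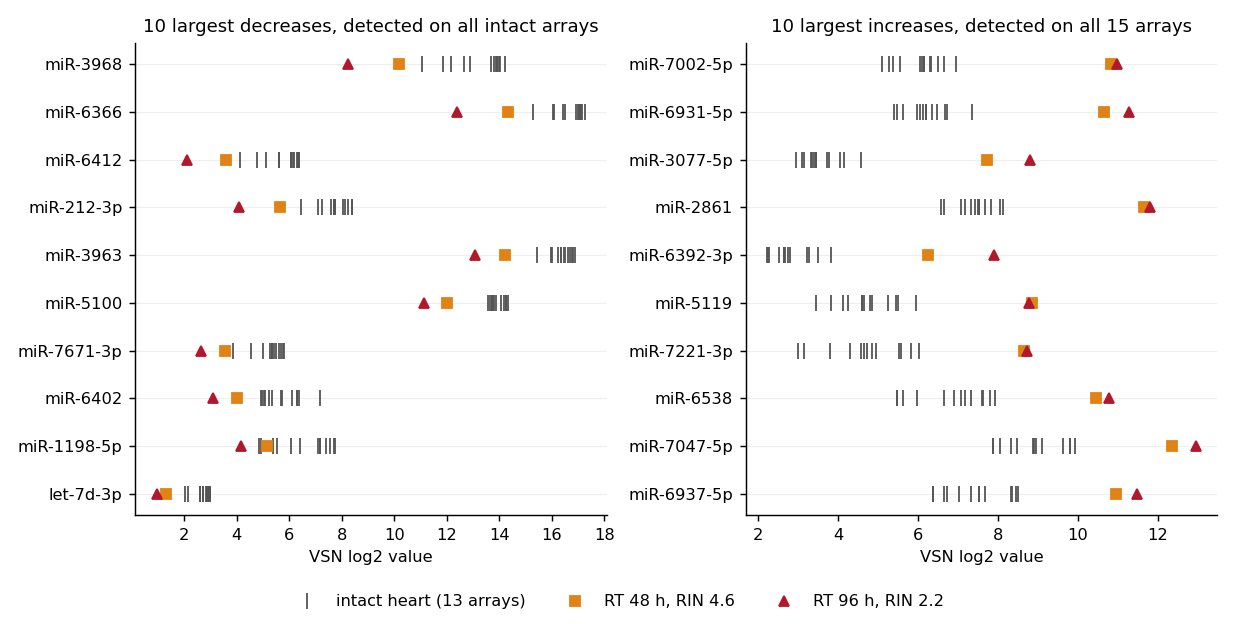
VSN log2 values (x axis) of the 10 largest decreases among miRNAs detected on all intact arrays (left) and the 10 largest increases among miRNAs detected on all 15 arrays (right). Grey ticks are the 13 intact arrays, squares RT 48 h and triangles RT 96 h. The degraded values lie outside the intact range for all 10 increases and for all decreases except miR-1198-5p at 48 h.

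For miRNAs that were not detected on any intact array only an approximate lower bound of the change can be given. Each bound sets the mean of the degraded arrays against the mean, over the intact arrays, of the lowest detected value on the array or the miRNA's own value where that was higher. It applies to the mean of the 2 degraded arrays and not to each of them. The lowest detected value of an array is also not the detection limit of each miRNA. For example, miR-3102-3p.2-3p had intact values of 2.13 to 2.62 and was detected on 0 intact arrays. miR-5621-5p had the largest fitted difference of all 815 miRNAs, with -4.65 to -3.17 on the intact arrays and 2.24 and 2.71 on the degraded ones. Its bound was only 2.03-fold. miR-1931 had 0.38 to 1.85, then 4.81 and 7.49, with a bound of 25.01-fold for the mean of these 2. The bound of miR-7684-3p was 5.30-fold and that of miR-546 was 4.46-fold. The bounds of miR-6915-5p, miR-7036b-3p, miR-7016-5p, miR-6982-5p and miR-294-5p lay between 3.21-fold and 3.82-fold, and that of miR-1932 was 1.91-fold. These miRNAs were listed for being detected on the degraded arrays alone, and 47 of the 97 called ones, miR-5621-5p and miR-546 among them, were detected on no intact array of any tissue and so passed the filter through degraded arrays only. The values are therefore a description, and no p is given. Of the 97, 71 were at least 2-fold and 25 at least 4-fold higher by this bound.

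Most miRNAs of heart muscle were not called. Of the heart and muscle list, 12 of 18 members were tested, of which 1 was higher, 1 was lower and 10 were not called, beside 35.7% higher and 11.5% lower over all 815. The median difference of the list was -0.39 beside -0.03 over all 815. Among the 208 miRNAs numbered under 1000 and detected on all 15 arrays, 16 were higher, 17 lower and 175 not called. miR-1a-3p, a miRNA of heart and skeletal muscle, had 14.13 to 14.93 on the intact arrays (median 14.46), 14.66 at 48 h and 13.64 at 96 h. The first lay inside and the second below the intact range, and the difference was -0.35 ± 0.24 (adjusted p = 0.217), but it was 1.99 after quantile normalization and 1.04 with normexp background correction, both called higher. miR-133b-3p had a difference of -0.36 (adjusted p = 0.193), which was 1.06 and called higher after quantile normalization. miR-133a-3p differed by -0.50 (adjusted p = 0.0963). The myosin-gene miRNAs miR-208a-3p and miR-499-5p differed by -0.41 (adjusted p = 0.185) and -0.13 (adjusted p = 0.859). All 5 of these miRNAs stood inside the intact range at 48 h and below it at 96 h, except miR-499-5p, whose 96 h value of 8.91 was above the lowest intact value of 7.22.

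A passenger arm and a skeletal muscle miRNA gave the calls of the list. miR-1a-2-5p, the opposite arm of a miR-1a hairpin, was detected on 10 of 13 intact arrays and at 1 of 2 degraded time points, and fell by 1.096 ± 0.21 (adjusted p = 0.000324) from 1.56 to 2.18 to 1.21 and 0.33. miR-206-3p, best known from skeletal muscle, was detected on no intact array and on both degraded arrays. The approximate lower bound of its rise was 2.88-fold. No intact array of any tissue detected it, so that it entered the test through degraded arrays alone. It shares its seed with miR-1a-3p. The 5p arm of miR-208a, with 4.76 to 5.47 in intact heart and 4.94 and 5.91 in degraded heart, was not called (adjusted p = 0.149).

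**Figure D4:**
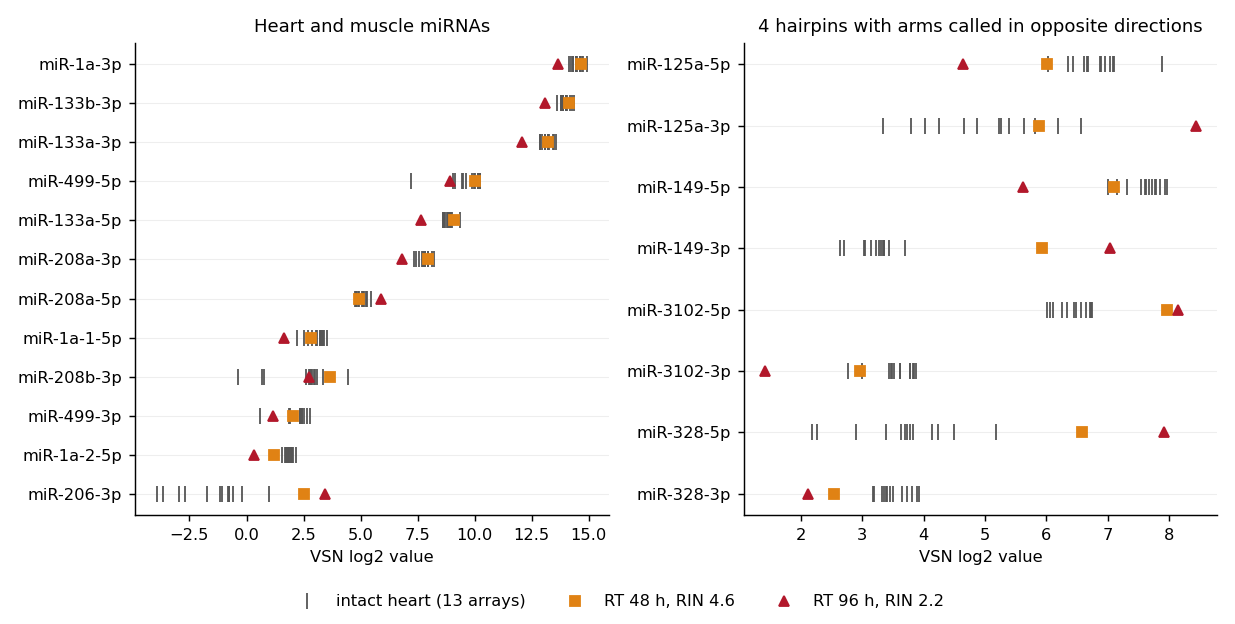
VSN log2 values (x axis) of the 12 tested heart and muscle miRNAs (left) and of both arms of 4 hairpins detected on all 15 heart arrays (right). Grey ticks are the 13 intact arrays, squares RT 48 h and triangles RT 96 h. miR-1a-3p, miR-133a-3p, miR-133b-3p, miR-208a-3p and miR-499-5p lie inside the intact range at 48 h. The paired arms of miR-125a, miR-149, miR-3102 and miR-328 were called in opposite directions.

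Other well-known miRNA groups held few calls as well. In bulk tissue, fewer cells of a type and less RNA per cell cannot be told apart. The 9 lists counted were heart, miR-378, let-7 guide strands, miR-30 guide strands, miR-29 and miR-26, miR-23, miR-27 and miR-24, vessel, blood and reference miRNAs. Of these, 76 members were tested, of which 2 were higher (2.63%), 5 lower (6.58%) and 69 not called, beside 35.7% and 11.5% over all 815. Calls were also few among all 208 miRNAs numbered under 1000 and detected on all 15 arrays, with 16 higher and 17 lower. Few calls were thus no trait of the lists alone. The passenger strands of let-7 and miR-30 were not among these lists, and 2 of 7 and 2 of 6 of them were lower. The medians of the lists were -0.79 to -0.26, and 0.31 to 0.83 without scaling between arrays. With the 96 h array alone as degraded they were -1.37 to -0.93, and with the 48 h array alone -0.08 to 0.59. The red blood cell miRNA miR-451a had 12.14 to 14.98 in intact heart and 14.18 and 12.67 in degraded heart, all inside the intact range (adjusted p = 0.977). The endothelial miR-126a-3p differed by -0.48 (adjusted p = 0.122). Of the stroma miRNAs, miR-145a-5p of smooth muscle and miR-214-3p of fibroblasts each fell by 1.05 (adjusted p = 0.00804 and 0.00633), and both calls were lost with the slide as a block, at -0.76 and -0.96, under 2-fold, as well as with the 48 h array alone. Among the reference miRNAs often used for normalization, miR-361-5p fell by 1.13 (adjusted p = 0.00359), but its 48 h value of 5.10 lay inside the intact range of 4.89 to 5.99. miR-191-5p was also called lower, but was detected on 1 of 13 intact arrays and on neither degraded one.

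Guide and passenger arms of the let-7 and miR-30 families were counted apart. Of the let-7 family, 10 guide strands were tested and 9 were not called, while let-7k, detected on 2 of 13 intact and on both degraded arrays, was higher by 1.79 ± 0.48 (adjusted p = 0.00438). Of 7 let-7 passenger strands, let-7d-3p and let-7e-3p were lower (28.6%, beside 11.5% over all 815), at a median of -0.91. let-7e-3p was detected on 1 of 13 intact and on 0 degraded arrays. Of 5 miR-30 guide strands, 0 were called at adjusted p under 0.05 and 2-fold, with differences of -0.92 to -0.61. Of 6 miR-30 passenger strands, miR-30d-3p fell by 1.51 (adjusted p = 0.00112) and miR-30b-3p by 1.102 (adjusted p = 0.00137). The difference between guide and passenger strands was not tested. Over all 31 hairpins with both arms detected on all 15 arrays, the brighter arm had a median difference of -0.50, with 5 higher and 3 lower. The dimmer arm had -0.54, with 2 higher and 5 lower.

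Markers of other tissues were checked as well. The liver marker miR-122-5p was detected on every heart array, with a mean of 6.40 in intact heart and 6.35 and 4.75 in degraded heart, and was not called. The neural miR-124-3p was detected on 1 intact array and 1 degraded array. Its neighbour in the list, miR-129-5p, was detected on both degraded and on no intact array, with an approximate lower bound of 1.37-fold for its rise. Of 6 liver miRNAs tested, 0 were higher and 2 lower, neither of them detected on any heart array. Of 10 brain miRNAs, 2 were higher and 2 lower (20% each), and miR-383-5p among the higher and miR-124-5p among the lower were detected on no heart array. The shares over all 815 were 35.7% and 11.5%. Of 10 stress-linked miRNAs, 1 was higher and 1 lower, namely miR-34c-3p, with a difference of 1.46 but detected on no heart array, and miR-212-3p, described above. The stress-linked miR-21a-5p, miR-210-3p and miR-34a-5p had differences of -0.01, -0.82 and -0.14 and were not called.

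The number in the name went along with the direction. Of 308 tested miRNAs numbered 3000 or higher, 187 were higher and 18 lower, with a median difference of 1.59. Of 48 numbered 1000 to under 3000, 27 were higher and 3 lower (median 1.58). Of 459 numbered under 1000, 77 were higher and 73 lower (median -0.44). These counts hold miRNAs that passed the filter on detection partly through the degraded arrays. Among the miRNAs detected on all 15 heart arrays, 58 of 101 numbered 3000 or higher were higher and 8 lower, against 16 and 17 of 208 numbered under 1000. Of miR-680 to miR-721, 13 of 21 were higher and 0 lower (median 2.15), among them miR-708-5p, which was higher by 4.17 ± 0.84 (adjusted p = 0.000496). Of miR-5097 to miR-5136, 16 of 19 were higher and 1, miR-5100, was lower. miR-5121 of this range rose from 2.05 to 3.78 to 5.45 and 8.59. Of 6 miR-3473 family members, 4 were higher with a list median of 2.02, among them miR-3473f at 3.98 ± 1.00 (adjusted p = 0.00284) and miR-3473e at 2.84 ± 0.58 (adjusted p = 0.000551). Conserved mirtrons, miRNAs released by splicing of a short intron, had 4 of 9 higher (44.4%) and 1 lower (11.1%), near the 35.7% and 11.5% of all miRNAs. Among them was miR-877-5p with 1.26 to 3.05 in intact heart and 5.46 and 5.45 in degraded heart.

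The miRNAs that rose were rich in G. In the 238 higher miRNAs with a sequence the median G content was 45.5% and the median C content 14.3%. In the 360 that were not called they were 23.8% and 22.7%, and in the 82 lower ones 18.2% and 27.3%. The length was 22 bases in the median of each group. Across the 680 miRNAs, the difference between degraded and intact heart had a Spearman's rho of 0.66 with the G content, and of -0.37 with the C content and 0.42 with both together. Across the 277 of them detected on all 15 arrays, rho was 0.59 with G. Within the 378 numbered under 1000 it was 0.47, and within the 302 with higher numbers 0.51. These values describe miRNAs on the same arrays, which share labelling and base composition, and are no tests. By bands of G content, 7 of 169 miRNAs (4.14%) with 15% to 25% G were higher, 76 of 126 (60.3%) with 35% to 45%, and 31 of 35 (88.6%) with 55% or more. A run of GGGG on the mature strand occurred in 78 of the 238 higher miRNAs (32.8%) and in 5 of the 82 lower ones (6.10%). The run was found in 120 of all 680 matched miRNAs (17.6%) and in 37 of the 360 not called (10.3%). Of the 1679 RefSeq names, 188 (11.2%) held it. miR-6366, the brightest of those that fell, is itself 45.5% G and holds such a run, while miR-3968, miR-6412 and miR-3963 hold 9.52%, 9.09% and 10.5% G.

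**Figure D5:**
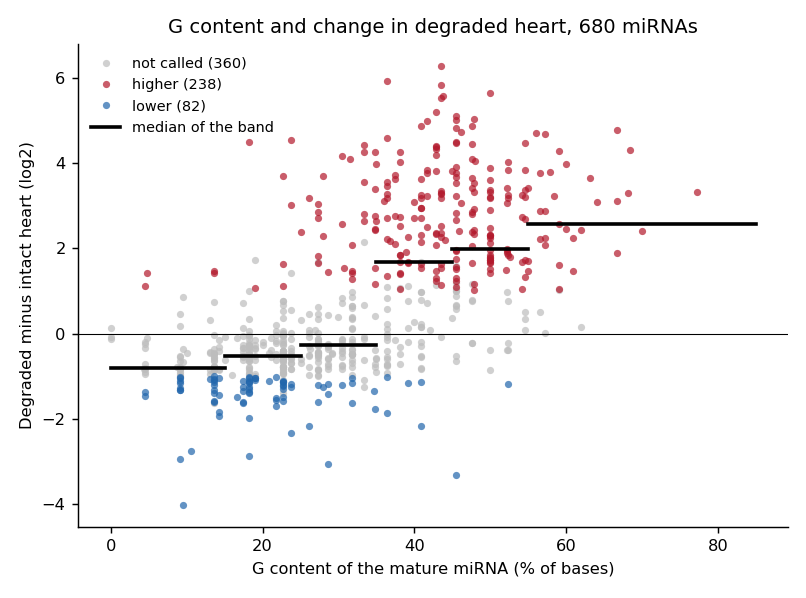
Difference between degraded and intact heart (log2, y axis) against the G content of the mature miRNA (percent of bases, x axis) for 680 miRNAs, coloured by call. Black lines are the medians of bands of G content, which run from -0.80 below 15% G to 2.57 at 55% or more.

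Arms of the same hairpin could change in opposite directions. Both arms were tested for 148 hairpins, and 11 of these had arms called in opposite directions, while 4 had both arms higher and 6 both lower. The 5p arms were called higher in 164 of 372 cases (44.1%) and 3p arms in 51 of 305 (16.7%). They were lower in 38 and 45 cases. Names without an arm were higher in 76 of 138 cases (55.1%). The shares over all 815 were 35.7% higher and 11.5% lower. Among names numbered 3000 or higher, 120 of 156 5p arms and 23 of 74 3p arms were higher. miR-149-3p had 2.63 to 3.69 in intact heart (median 3.28), then 5.93 and 7.03, higher by 3.29 ± 0.28 without overlap (adjusted p = 1.34e-07). Its partner miR-149-5p had 7.004 to 7.96 (median 7.68), then 7.10 and 5.61, lower by a mean of 1.25 with the 48 h value inside the intact range, and its call was lost on the RT slide alone and with the 48 h array alone. The 3p arm holds 68.2% G against 17.4% in the 5p arm. miR-125a-3p rose by 2.16 ± 0.74 (adjusted p = 0.0191) from 3.33 to 6.56 to 5.87 and 8.44, of which only the 96 h value lay above the intact ones. miR-125a-5p, a guide strand of the lin-4 family, fell by 1.49 ± 0.37 (adjusted p = 0.00284). miR-328-5p rose by 3.60 ± 0.60 (adjusted p = 0.000105) and miR-328-3p fell by 1.20 ± 0.22 (adjusted p = 0.000229). Of the 8 opposite pairs with both sequences at hand, the arm that rose held more G in 7, the exception being miR-677. Seeds were counted among the called miRNAs alone, of which 75.6% were higher. Few of the called miRNAs shared a seed. The seed AGGAGAG occurred in 4 of them, miR-7012-5p, miR-7057-5p, miR-8113 and miR-8119, all higher. The seed AGGGAGG of miR-149-3p occurred in 3, with miR-1943-5p and miR-7016-5p, also all higher.

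The change in heart was set beside that in the other tissues of the series, for which the degraded arrays, with a RIN of 6 or lower, were 2 of brain and 8 of liver and the intact ones 14 and 6. In a limma fit over 45 arrays, the heart change differed from the brain change for 0 of 815 miRNAs (0%) at an adjusted p under 0.05 and 2-fold, with 42 at an unadjusted p under 0.05, and for 31 with another scaling, the 75th percentile of miRNAs detected on all 45 arrays. The methods took the 3 tissues of a temperature from the same individual. With animal and storage time as a block 2 miRNAs differed, miR-341-3p by 4.48 ± 0.87 (adjusted p = 0.0148) and miR-129-5p by 3.50 ± 0.76 (adjusted p = 0.0320). The change was the higher one in heart for both. miR-129-5p was detected on no intact heart array, so that its fitted value rests partly on signals near the background. The approximate lower bound of its rise in heart was 1.37-fold. The heart change differed from the liver change for 3 miRNAs (0.368%), with 77 unadjusted. This count rested on all 8 degraded liver arrays, 6 of which were stored otherwise than the degraded hearts. Against the liver arrays of 48 h and 96 h at RT alone, 362 miRNAs differed, 181 in each direction, and 379 did with animal and storage time as a block. With that block and all 8 liver arrays 327 differed. The count of 0 for brain used 1 spread shared by all 45 arrays, the 8 degraded liver arrays among them. The count of 362 came from a fit without 6 of these. In it the SE of let-7e-5p against liver was 0.61, where it was 1.08 with all 8. Brain was not refitted that way, so that the counts of 0 and 362 rest on unlike estimates of the spread. Storage was matched in the comparison with 48 h and 96 h, but RIN was not. At 48 h the heart array had a RIN of 4.6, while both liver arrays had a RIN under 4. The intact liver arrays were mostly of 4 °C, and so of another animal per the methods. At the same storage, the heart change minus the liver change was 4.84 ± 0.61 for let-7e-5p (adjusted p = 2.46e-07). For miR-5103 it was -3.96 ± 0.58 (adjusted p = 1.82e-06). In heart, let-7e-5p differed by -0.29 and was not called, so that its positive value stands for a fall in liver. These 4 miRNAs and the alternatives with the block or with liver of 48 h and 96 h were chosen after their values were seen. A p that misses the threshold with 2 degraded heart arrays does not show that the tissues changed alike. Of the 291 miRNAs higher in heart, 277 had a positive difference in brain and 290 in liver, where 47.0% and 55.7% of all 815 did. Of the 94 lower ones, 92 and 88 had a negative difference. Of the 291 higher ones, 76 were detected on no intact array of any tissue. With 2 degraded arrays each in heart and brain, these could pass the filter only if degraded liver arrays detected them too. Part of the agreement with liver, also in the rho that follows, is thus set by the filter. Across the 815 miRNAs, Spearman's rho between the heart difference and that of brain was 0.82, and 0.86 for liver, as a description across miRNAs normalized together. The leading decrease miR-6366 was lower by a mean of 3.32 in heart, with differences of -3.27 in brain and -1.19 in all degraded liver, and neither difference between tissues was called (heart minus brain -0.05 ± 0.97, adjusted p = 0.998, and heart minus liver -2.13 ± 0.84, adjusted p = 0.341). Against liver of the same storage, heart minus liver was 0.33 ± 0.65 (adjusted p = 0.692).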

How the data were processed

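Total RNA of mouse heart, isolated with miRNeasy without DNase treatment, was hybridised by the authors to 1-colour (Cy3) Agilent SurePrint mouse miRNA arrays with 1881 miRNAs and 30 spots per miRNA. Per the file headers, signals were extracted with Agilent Feature Extraction 10.10.1.1. The deposited intensity values are background-subtracted total signals per miRNA and probe with a detection flag. The deposited log2 values were made by the authors from them by VSN over the series, which gives values near the background to miRNAs that were not detected.

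From these, 815 miRNAs with the detection flag on at least 5 of the 45 arrays were tested with limma 3.58.1 (lmFit and eBayes, R 4.3.3) on the log2 values, with Benjamini-Hochberg adjustment. The authors' WMW test cannot go below p = 0.0190 with 2 against 13 arrays and was an alternative. Values per array were compared by exact permutation tests over all splits (numpy 2.4.6, pandas 2.3.3). Signals for shares and ratios were the total gene signal where detected and the sum of the probe signals otherwise, with values below 0 set to 0. The fits were tested on simulated data. The mean signal of spots is not used here, so normexp (offset 50) was run on median signals. Other scalings, filters, the slide as a block and leaving out each array were tried, and after seeing the data also animal and storage time as a block and liver of the same storage. Members and lists were chosen with earlier results of these data known. The miRNAs named are the 10 largest increases among called miRNAs detected on all 15 heart arrays, the 10 largest among those on both degraded and 0 intact arrays, the 10 largest decreases among those on all 13 intact arrays, the 10 brightest of intact heart, the detected heart and muscle miRNAs, and from each other list the 2 called members with the largest change or else the brightest, and others are named where a count or a pair of arms turns on them. Sequences, coordinates and gene spans are those of RefSeq (GRCm38.p6). RIN, storage and time are per the labels.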

Additional observations from a re-analysis of the deposited data

Results flagged for a closer look

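The change in degraded heart differed from that in degraded liver, by the test of the difference itself, for 3 miRNAs. miR-6976-3p had 2.57 to 3.06 on the intact heart arrays and 4.24 and 4.18 on the degraded ones, a difference of 1.43 in heart against -0.10 in liver. The heart change minus the liver change was 1.53 ± 0.31 (limma, adjusted p = 0.00853). miR-3058-3p had a difference of -1.26 in heart and 1.76 in liver, a heart minus liver value of -3.02 ± 0.71 (limma, adjusted p = 0.0388). miR-320-3p, a miRNA made without Drosha, had -0.67 in heart and 0.84 in liver, a heart minus liver value of -1.51 ± 0.36 (limma, adjusted p = 0.0388). With the slide as a block, and without either of the degraded heart arrays, 0 such differences were called. Against liver of 48 h and 96 h at RT alone, the heart minus liver values were 1.12 for miR-6976-3p, -3.81 for miR-3058-3p and -1.88 for miR-320-3p, all still called among 362. In heart alone, miR-6976-3p was called higher, while miR-3058-3p (adjusted p = 0.0614) and miR-320-3p (adjusted p = 0.0213, under 2-fold) were not called. The differences in brain were 0.85 for miR-6976-3p, -0.36 for miR-3058-3p and -0.61 for miR-320-3p.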

How the results depend on the processing

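Of the numbers of called miRNAs, the 291 higher and 94 lower became 84 and 26 with only the 329 miRNAs detected on all 15 heart arrays, 480 and 387 without a filter, 176 and 275 with the 75th percentile of all miRNAs, and 45 and 17 with normexp. They were 248 and 49 with detection on at least 2 heart arrays, 204 and 205 with quantile normalization, 396 and 8 without scaling, 220 and 53 with undetected values raised to the lowest detected and 277 and 62 with the set-aside array among the intact. Leaving out each array gave 225 to 297 higher and 35 to 196 lower, the extremes of the lower ones coming without the 96 h and the 48 h array. The share of higher calls among all calls was 75.6%, against 55.4% without a filter, 39.0% with the 75th percentile of all miRNAs, 49.9% with quantile normalization, 98.0% without scaling, 58.6% without the 48 h array and 86.5% without the 96 h array. The number of detected miRNAs differed by 227 on the RT slide alone, and by 170 to 264 without each array. The share of the 10 brightest miRNAs differed by -34.7 percentage points on that slide and by -43.8 to -26.5 without each array. Their p-values could not pass the threshold within the slide or with 1 degraded array.

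The heart and brain changes differed for 31 miRNAs, and the heart and liver changes for 14, with the 75th percentile of miRNAs detected on all 45 arrays. The latter count was 0 with the slide as a block, 1 without a filter, 23 with liver arrays of a RIN under 4 as degraded, and 0 without either degraded heart array. Of 74 named miRNAs, 71 kept their call or its absence with the slide as a block and 34 with normexp. The sign changed for miR-1a-3p (1.99 with quantile normalization, 1.04 with normexp) and miR-133b-3p (1.06 with quantile normalization), which were not called in the VSN values. The calls of miR-145a-5p and miR-214-3p (0.0411 and 0.0398 without scaling), of miR-383-5p (-0.12 with undetected values raised) and of miR-802-5p (0 with either 75th percentile, quantile normalization and no scaling) were lost with a value near 0. The cause was not tested. miR-802-5p and miR-383-5p were detected on no heart array. Degraded and intact heart could not be paired, since each time point has 1 heart array. The tissues share animals per the methods, and with animal and storage time as a replicate block, chosen after seeing the data, the heart change differed from the brain change for 2 miRNAs and from the liver change for 327. Against liver of 48 h and 96 h at RT, also chosen after seeing the data, it differed for 362 and, with the block, 379, and all 3 calls of the 8 liver arrays were among these. With the block, degraded heart is set only against liver of the same storage, by construction.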
